A study of Mus musculus with 9 samples.

Results

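Motile cilia are the beating, hair-like extensions that multiciliated cells of the respiratory lining use to move mucus, and 36 mouse genes that build or specify them were followed here through whole main olfactory epithelium (MOE), the nasal tissue that holds the olfactory sensory neurons (OSNs). The 36 were chosen by name and function, with earlier results of these data known. Of these, 34 had a row among the 24421 genes with raw counts. Dnah3 and Dnah12, 2 inner arm dynein heavy chains, had no row under their symbols and were not analysed here. The study behind the data asked what a regulatory element of the trace amine-associated receptor genes, TAAR enhancer 2, does for receptor expression, and motile cilium genes were no target of it. RNA was sequenced from 9 MOE libraries of mice labelled C57BL/6 at postnatal day 14. The methods name C57BL/6J zygotes for the deletion, and the study's reporting form gives mixed C57BL/6J and 129 backgrounds for its mouse lines as a whole. CRISPR-Cas9 had been used to delete TAAR enhancer 2, and 3 libraries carried the deletion on both chromosomes (homo), 3 on a single chromosome (het) and 3 on none (wild type, WT). By the study's methods the groups were littermates of 1 established line, in which every cell of the body carries the deletion, and both sexes were used. The study counts 3 mice per genotype, and p-values measure the spread between these libraries, which holds differences between mice and between preparations. Each genotype had replicate numbers 1, 2 and 3, and the labels do not explain what a number stands for.

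A motile cilium has 9 outer microtubule doublets around a central pair. Dynein motors on the doublets, arranged in outer and inner arms, make the doublets slide, while radial spokes, nexin links and the central pair turn sliding into a beat. In mammals the cilia of OSNs are sensory and lack dynein arms, whereas the neighbouring respiratory epithelium of the nasal cavity carries motile cilia. Multiciliated cells are specified by Mcidas, which turns on Ccno, Myb and Foxj1, and Foxj1 together with RFX factors then switches on the structural genes.

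In bulk tissue no read is assigned to a cell, and fewer ciliated cells cannot be told apart from less RNA of these genes per cell. The 10 markers of mature OSNs fixed as a check of the tissue were all measured, with a summed level of 7030.1 to 8114 CPM (reads of a gene per set number of reads, on library sizes corrected with TMM) in the 9 libraries. Of 12 markers of respiratory secretory and gland cells 9 passed the filter on low counts. Scgb1a1 and Scgb3a2, secretoglobins of airway club cells, stayed at or below 1 and 2 counts. Total counts were 20527992 to 32262005 per library. Raw counts lay between 58 and 13259 for any member in any library. The lowest were those of Mcidas (58 to 159), and counting error was not set against the spread between libraries.

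RFX factors bind the X-box, and the stretches printed here were picked because they hold an X-box match, for 5 of the members called higher in replicate number 1 further on, with Cfap44, which was not called, beside them. The windows of Dnah5 and Dnah9, called as well, held no match, and Foxj1 had no window. Windows of 250 bases before to 50 bases after a transcription start (RefSeq, GRCm38.p6) were found for 30 of the 34 members. A single site, GTTGCC, on either strand, was present for 17 of these 30, among them 5 of the 8 with a window that are called below and 12 of the 22 that are not. Counted over windows, 18 of the 36 windows of listed genes held it, against 12.5% of all 32851 windows. The paired form, GTNNCC followed after 2 bases of any kind by GGNNAC, which can contain the single site and reads the same on both strands, was present in 13.9% of the windows of listed genes and in 1.88% of all windows. The forkhead core TAAACA, searched on both strands for Foxj1-type factors, was in 22.2% and 13.4%. Matches of letters are a description and not evidence of binding. Each stretch lies on the plus strand of GRCm38.p6, with the matched motif in capitals upstream of a RefSeq transcript start. For Cfap126 and Tekt4 that start lies within the gene, and the stretches begin 9.04 and 16.8 kb downstream of the GENCODE gene start. The capitals in Ccno, Cfap126 and Tekt4 mark the paired form, those in Mcidas the single site, and those in Hydin and Cfap44 the single site on the opposite strand. The positions are chr13:112987575-112987604 for Ccno, chr1:171122955-171122984 for Cfap126, chr17:25471422-25471451 for Tekt4, chr13:112993661-112993690 for Mcidas, chr8:110266947-110266976 for Hydin and chr16:44394768-44394797 for Cfap44.
Ccno: gggctgcgGTTGCCACGGTGACgacagacg
Cfap126: tgttcaagGTATCCATGGCTACttctcagt
Tekt4: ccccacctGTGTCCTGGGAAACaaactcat
Mcidas: gggggaagccagGTTGCCaggttggttaac
Hydin: cactctgcggttgctgtGGCAACagatggt
Cfap44: ggacgttgctatGGCAACcgcagtaaacgg

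Levels differed widely between members. Per kilobase of merged exons (GENCODE M21, GRCm38), Rsph1, a radial spoke head gene, had the highest mean level with 53.5 CPM per kb, followed by Foxj1 with 44.5 and Cfap44 with 40.8. The lowest were Dnah7a with 0.62, Mcidas with 1.98, Dnah1 with 2.02 and Ccno with 2.32 CPM per kb. The Dnah7a value is uncertain, because only 61.4% of its 50-base exon windows were unique in the transcriptome, and the rest were shared mainly with Dnah7b. All other members had at least 98.4% unique windows. Antisense exons covered 20.8% of the exons of Tekt2 and 16.9% of those of Ccdc39, and whether the counting used strand is not stated. The symbols of Spag6 and of its paralog Spag6l have been used for each other, so the locus counted under Spag6 was not settled.

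Members moved mainly with the replicate number. With genotype in the model, 9 of the 34 members passed the threshold (edgeR quasi-likelihood test, adjusted p under 0.05 and fold change over 1.5) between number 1 and numbers 2 and 3. Of these, 8 were higher in number 1, namely Ccno, Foxj1, Mcidas, Cfap126, Dnah5, Dnah9, Hydin and Tekt4, and Rfx3 alone was lower. Over all 19775 genes tested the same threshold called 8.95%, with 5.42% higher and 3.52% lower. All 34 members passed the filter of at least 10 counts summed over the 9 libraries. Libraries of number 1 lay wholly above those of numbers 2 and 3 for 17 members and wholly below for 4, against 17.8% and 16.2% of all genes. The median log2 fold change of the 34 members was 0.35, and that of all genes −0.03. By adjusted p alone, 21 members differed (18 higher and 3 lower), where 31.6% of all genes did. The number was singled out because these libraries stood apart in earlier results of these data, which were also known when the members were chosen. A test for any difference between the 3 numbers gave 17 members, against 20.6% of all genes, with 10 members without WT replicate 1, 4 without het replicate 1 and 6 without homo replicate 1. Without homo replicate 1 the 9 calls fell to 3, and Ccno, Foxj1 and Cfap126 were those that still passed. Mcidas also fell short without het replicate 1, Rfx3 without WT replicate 2 or het replicate 3, and Tekt4 without WT replicate 1 or 3.

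**Figure D1:**
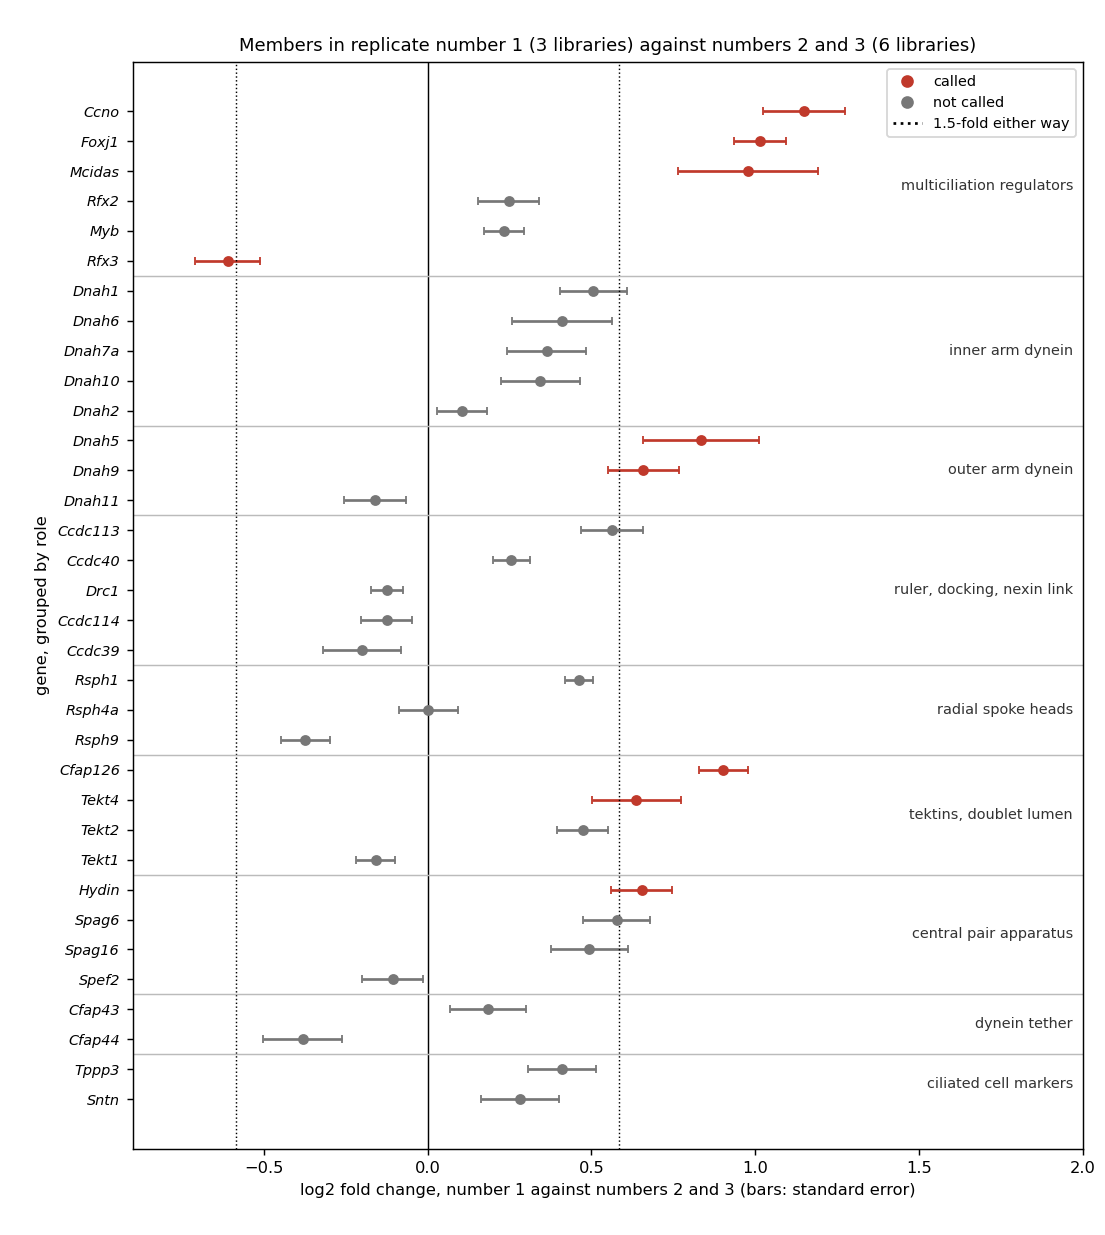
Log2 fold change of the 34 members between replicate number 1 (3 libraries) and numbers 2 and 3 (6 libraries) with genotype in the model, bars showing the standard error and dotted lines 1.5-fold. The 8 called members to the right run from Tekt4 at 0.64 to Ccno at 1.15, Rfx3 at −0.61 is the called member to the left, and every role group except the inner arm dyneins and the ciliated cell markers holds members on both sides of 0.

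Regulators of multiciliation gave the largest values. Levels per library are given below as normalized counts, which are raw counts divided by 1 size factor per library, and folds as log2 of number 1 over numbers 2 and 3. Foxj1 had 4793, 2392 and 2677 normalized counts in replicates 1, 2 and 3 of WT, 4157, 2276 and 2082 in het and 4343, 2105 and 1732 in homo. Foxj1 is the transcription factor that drives motile cilium assembly, and in each genotype its number 1 library was highest, above all 6 libraries of numbers 2 and 3. Its mean was 4431 ± 327 (SD, n = 3) in number 1 and 2211 ± 319.8 (SD, n = 6) in the others, a log2 difference of 1.01 (SE 0.08, edgeR adjusted p = 0.000136). Ccno had 248, 118 and 138 normalized counts in replicates 1, 2 and 3 of WT, 241, 90.6 and 106 in het and 217, 85.9 and 105 in homo. Ccno, a cyclin-like protein needed for the amplification of centrioles, differed by 1.15 (SE 0.13, edgeR adjusted p = 0.000459) and did not overlap. Mcidas had 167, 124 and 129 normalized counts in replicates 1, 2 and 3 of WT, 169.7, 71.6 and 101 in het and 181, 52.4 and 74.9 in homo. Mcidas, a co-activator of the programme, was likewise highest in number 1 for every genotype, with a log2 difference of 0.98 (SE 0.21, edgeR adjusted p = 0.00932). Ccno (chr13:112987802-112990777) and Mcidas (chr13:112993845-113000394) are neighbours on the plus strand, 3.07 kb apart, in GRCm38. Cdc20b, named here only for its position on the other side of them, differed by 0.37 and was not called (edgeR adjusted p = 0.116).

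The other regulators were less variable or moved the other way. Myb had 1002, 827 and 842 normalized counts in replicates 1, 2 and 3 of WT, 972, 843 and 904 in het and 1023, 832 and 863 in homo. Myb, which acts early in multiciliated cells and also in dividing progenitors, was higher in number 1 without overlap, but by 0.23 only (SE 0.06, edgeR adjusted p = 0.0187). Rfx2 differed by 0.25 (SE 0.09, edgeR adjusted p = 0.0723). Rfx3 had 5649, 9668 and 7224 normalized counts in replicates 1, 2 and 3 of WT, 6244, 8637 and 10042 in het and 5638, 9543 and 8511 in homo. Rfx3, an RFX factor also used by cells with primary cilia, was lower in number 1 than in every other library, with a log2 difference of −0.61 (SE 0.10, edgeR adjusted p = 0.00232). Because Rfx3 is abundant, the summed level of the 6 regulators hid both movements and in number 1 was 97.4% of that in numbers 2 and 3.

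**Figure D2:**
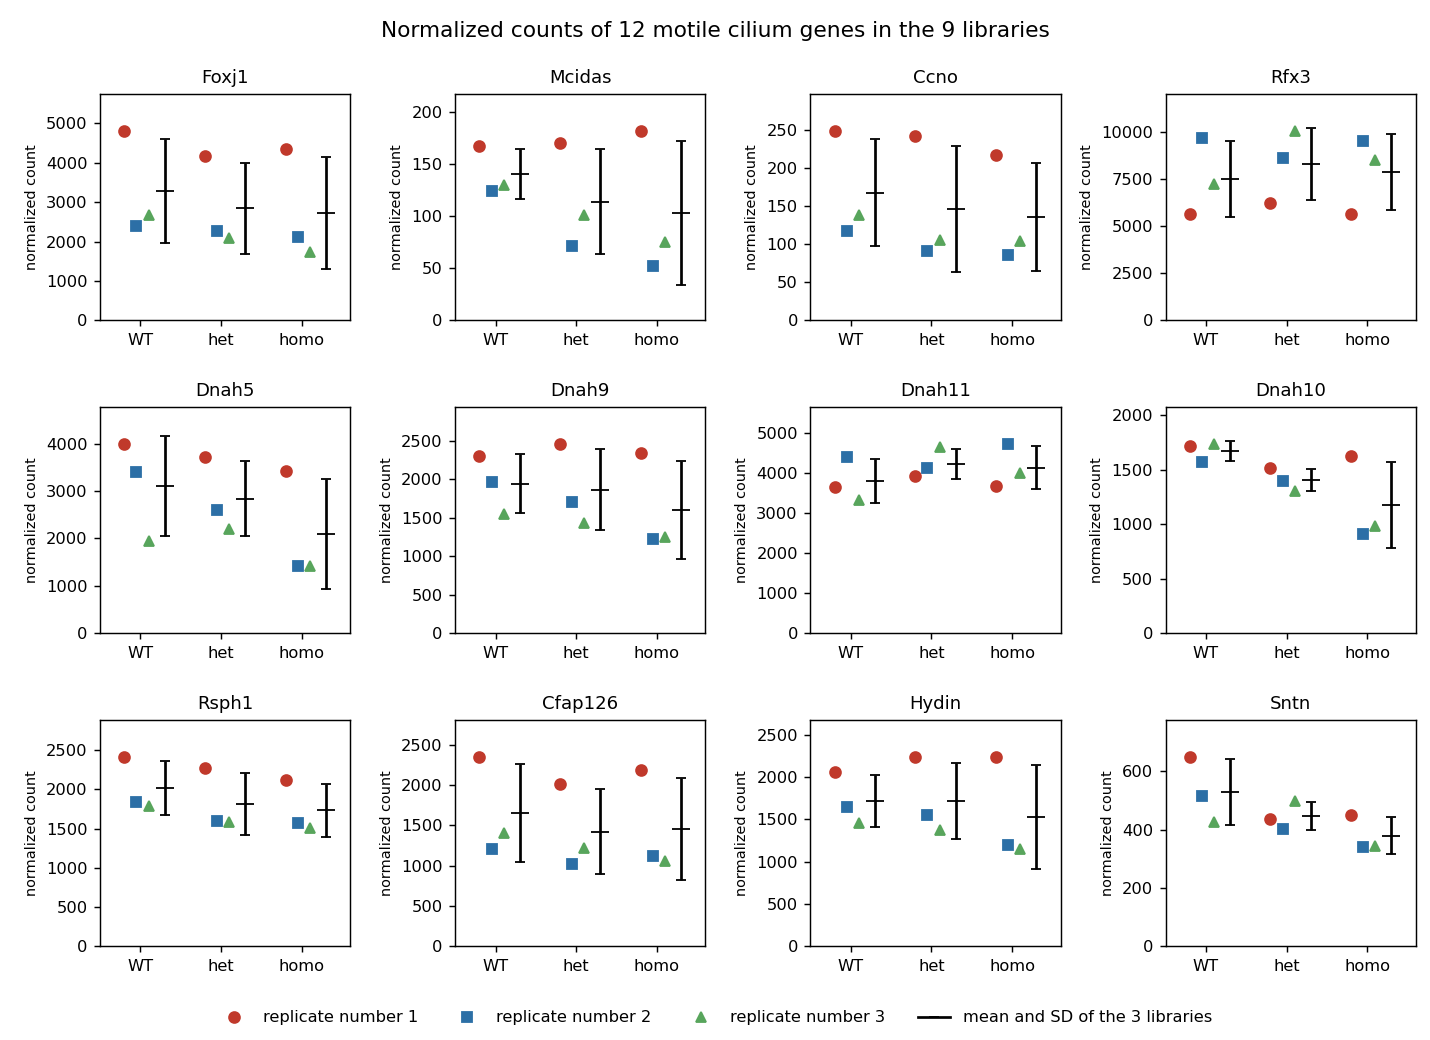
Normalized counts (vertical axes, each from 0) of 12 members by genotype, with 1 symbol per library, its shape and colour giving the replicate number, and bars showing the mean and SD of the 3 libraries of a genotype. The circles of number 1 lie above all other libraries for Foxj1, Mcidas, Ccno, Dnah5, Dnah9, Rsph1, Cfap126 and Hydin and below them for Rfx3, and the homo libraries of numbers 2 and 3 are the lowest for Dnah10, Dnah5, Dnah9, Hydin, Rsph1 and Sntn.

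Outer arm dyneins did not move as a unit. Dnah5 had 3983, 3391 and 1943 normalized counts in replicates 1, 2 and 3 of WT, 3723, 2605 and 2192 in het and 3425, 1429.7 and 1425 in homo. Dnah9 had 2309.7, 1970.5 and 1551 normalized counts in replicates 1, 2 and 3 of WT, 2454, 1701 and 1439 in het and 2343, 1222 and 1253 in homo. Dnah5 and Dnah9, motor heavy chains of the outer arm, were higher in number 1 by 0.84 (SE 0.18, edgeR adjusted p = 0.00803) and 0.66 (SE 0.11, edgeR adjusted p = 0.00254). Dnah11 had 3658, 4405 and 3343 normalized counts in replicates 1, 2 and 3 of WT, 3929.9, 4132 and 4647 in het and 3673, 4719 and 4017 in homo. Dnah11, the heavy chain of the proximal outer arm, overlapped between numbers and differed by −0.16 (SE 0.09, edgeR adjusted p = 0.229). Per kilobase Dnah11 was the most abundant of these genes with 11.1 CPM per kb, beside 6.78 for Dnah5 and 4.48 for Dnah9. The 5 inner arm heavy chains measured were above 0 in number 1, from 0.11 for Dnah2 to 0.51 for Dnah1, and none passed the fold limit, while Dnah1 and Dnah7a passed on adjusted p alone.

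Among proteins that space and link the doublets, Ccdc39 had 4372, 5485 and 3719 normalized counts in replicates 1, 2 and 3 of WT, 4199, 4487 and 5505 in het and 4114, 5240.0 and 4799.8 in homo. This gene encodes part of the ruler that sets the repeat along the doublet, and its groups overlapped, with a log2 difference of −0.20 (SE 0.12, edgeR adjusted p = 0.24). Ccdc40, its partner in the ruler, was 0.26 (SE 0.06, edgeR adjusted p = 0.0101), and Ccdc113 was 0.56 (SE 0.09, edgeR adjusted p = 0.0028), neither reaching 1.5-fold. Ccdc114, a docking protein of the outer arm, and Drc1, of the nexin link, lay at −0.12 each.

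Radial spoke heads diverged from each other. Rsph1 had 2409, 1840.3 and 1791 normalized counts in replicates 1, 2 and 3 of WT, 2267, 1597 and 1582 in het and 2122, 1575 and 1504 in homo. Rsph1 was above all other libraries in number 1 and had one of the 3 smallest p-values among the members, with a log2 difference of 0.46 (SE 0.04, edgeR adjusted p = 0.000255). Rsph9 was lower in number 1 by −0.37 (SE 0.07, edgeR adjusted p = 0.00579) without overlap, and Rsph4a was 0.00 (SE 0.09, edgeR adjusted p = 0.988). All 3 encode head proteins of the same spoke.

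Doublet lumen genes also split. Cfap126 had 2344, 1212 and 1404 normalized counts in replicates 1, 2 and 3 of WT, 2019, 1017 and 1226 in het and 2190.3, 1122 and 1056 in homo. Cfap126, also called Flattop, was called with 0.90 (SE 0.07, edgeR adjusted p = 0.000171), and Tekt4 with 0.64 (SE 0.14, edgeR adjusted p = 0.00832). Tekt1 had 1059, 1229 and 1108 normalized counts in replicates 1, 2 and 3 of WT, 1043, 1114 and 1165 in het and 1010.2, 1199 and 1144 in homo. Tekt1, another tektin filament protein, was lower in all 3 number 1 libraries, by −0.16 (SE 0.06, edgeR adjusted p = 0.073), and Tekt2 was 0.47 (SE 0.08, edgeR adjusted p = 0.00274), short of the fold limit. The 4 genes together reached 156 to 177 CPM in number 1 and 111 to 125 CPM in the others.

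Of the central pair genes 1 was called. Hydin had 2055, 1652 and 1456 normalized counts in replicates 1, 2 and 3 of WT, 2233, 1550.3 and 1379 in het and 2233, 1199 and 1146 in homo. Hydin, a very large protein of the central pair, was called with 0.65 (SE 0.09, edgeR adjusted p = 0.00137). Spag6 had 672, 543 and 420.1 normalized counts in replicates 1, 2 and 3 of WT, 624, 445 and 446 in het and 594, 376 and 328 in homo. Spag6 lay just under the 1.5-fold limit with 0.58 (SE 0.10, edgeR adjusted p = 0.00357) and passed it when any of 5 libraries was left out (WT 1, WT 2 or any het). Spag16 was 0.49 (SE 0.12, edgeR adjusted p = 0.0132) and Spef2, the most abundant of the 4, was −0.11 (SE 0.09, edgeR adjusted p = 0.426).

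Cfap43 had 2506, 2606 and 2329 normalized counts in replicates 1, 2 and 3 of WT, 2255, 1952 and 2501 in het and 2353, 1838 and 1512 in homo. Cfap44 had 6939, 10397 and 6851 normalized counts in replicates 1, 2 and 3 of WT, 7728, 9366 and 10440.2 in het and 6916, 10131 and 9176 in homo. Cfap43 and Cfap44 encode the pair of proteins that tether inner dynein f, and the pair diverged, with 0.18 for Cfap43 (SE 0.12, edgeR adjusted p = 0.259) and −0.38 for Cfap44 (SE 0.12, edgeR adjusted p = 0.0403). Cfap44 overlapped, with WT replicate 3 below all 3 libraries of number 1. Tppp3 had 1817, 1231 and 1772 normalized counts in replicates 1, 2 and 3 of WT, 1636, 1178 and 1191 in het and 1599.7, 1162 and 1137 in homo. Tppp3, a tubulin-binding protein of ciliated cells, was 0.41 (SE 0.10, edgeR adjusted p = 0.0172), with WT replicate 3 within the range of number 1. Sntn had 648, 514 and 425 normalized counts in replicates 1, 2 and 3 of WT, 437, 403 and 498 in het and 452, 339.8 and 345 in homo. Sntn, which encodes sentan of the ciliary tip, was 0.28 (SE 0.12, edgeR adjusted p = 0.104), and its highest library was WT replicate 1.

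**Figure D3:**
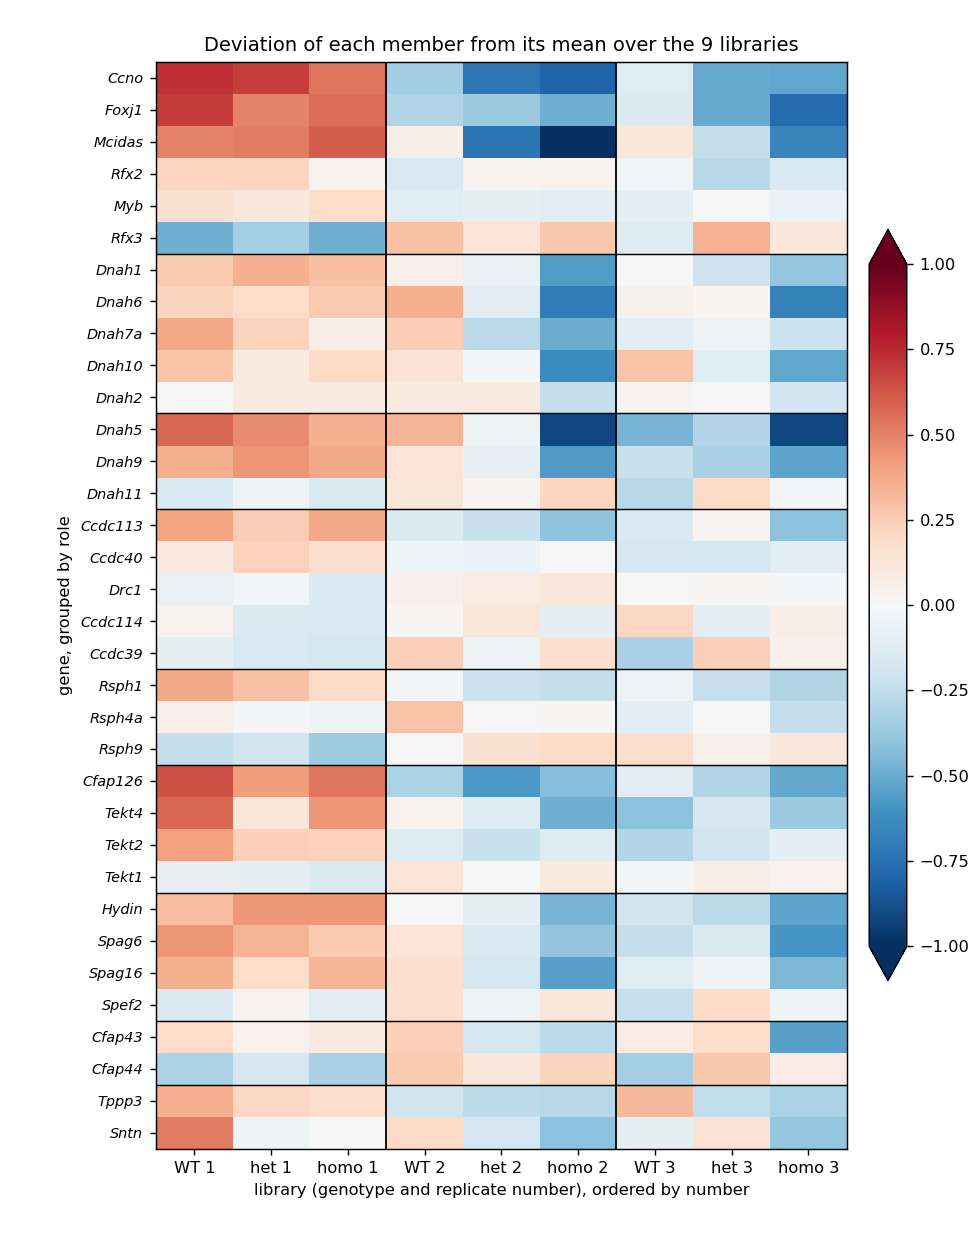
Each cell is the log2 ratio of a member's normalized count in a library to its mean over the 9 libraries, with libraries ordered by replicate number and genes grouped by role (black lines), red for higher and blue for lower. Red columns for number 1 in most rows break at Rfx3, Dnah11, Ccdc39, Ccdc114, Drc1, Rsph9, Tekt1, Spef2 and Cfap44, and the darkest blue cells are homo 2 in Mcidas and homo 2 and homo 3 in Dnah5. Rsph4a (het 1 and homo 1) and Sntn (het 1) also hold cells below the mean in number 1.

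Summed over the 34 members, the level in number 1 was 105% of that in numbers 2 and 3, and without the 5 members of highest CPM (Cfap44, Rfx3, Spef2, Ccdc39 and Ccdc40), none of them called higher, it was 127%. The groups that stood out upwards were the tektin and doublet lumen genes at 139.8%, the 2 ciliated cell markers at 129.5%, and the outer and inner arm dyneins at 125% and 123%. The inner arm value differed by genotype. In replicates 1, 2 and 3 that sum was 236, 235 and 219 CPM in WT and 229.5, 199 and 196 in het. In homo it was 238, 140.4 and 149 CPM, so in WT number 1 hardly stood apart. The pair of tether genes stood at 83.2%.

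**Figure D4:**
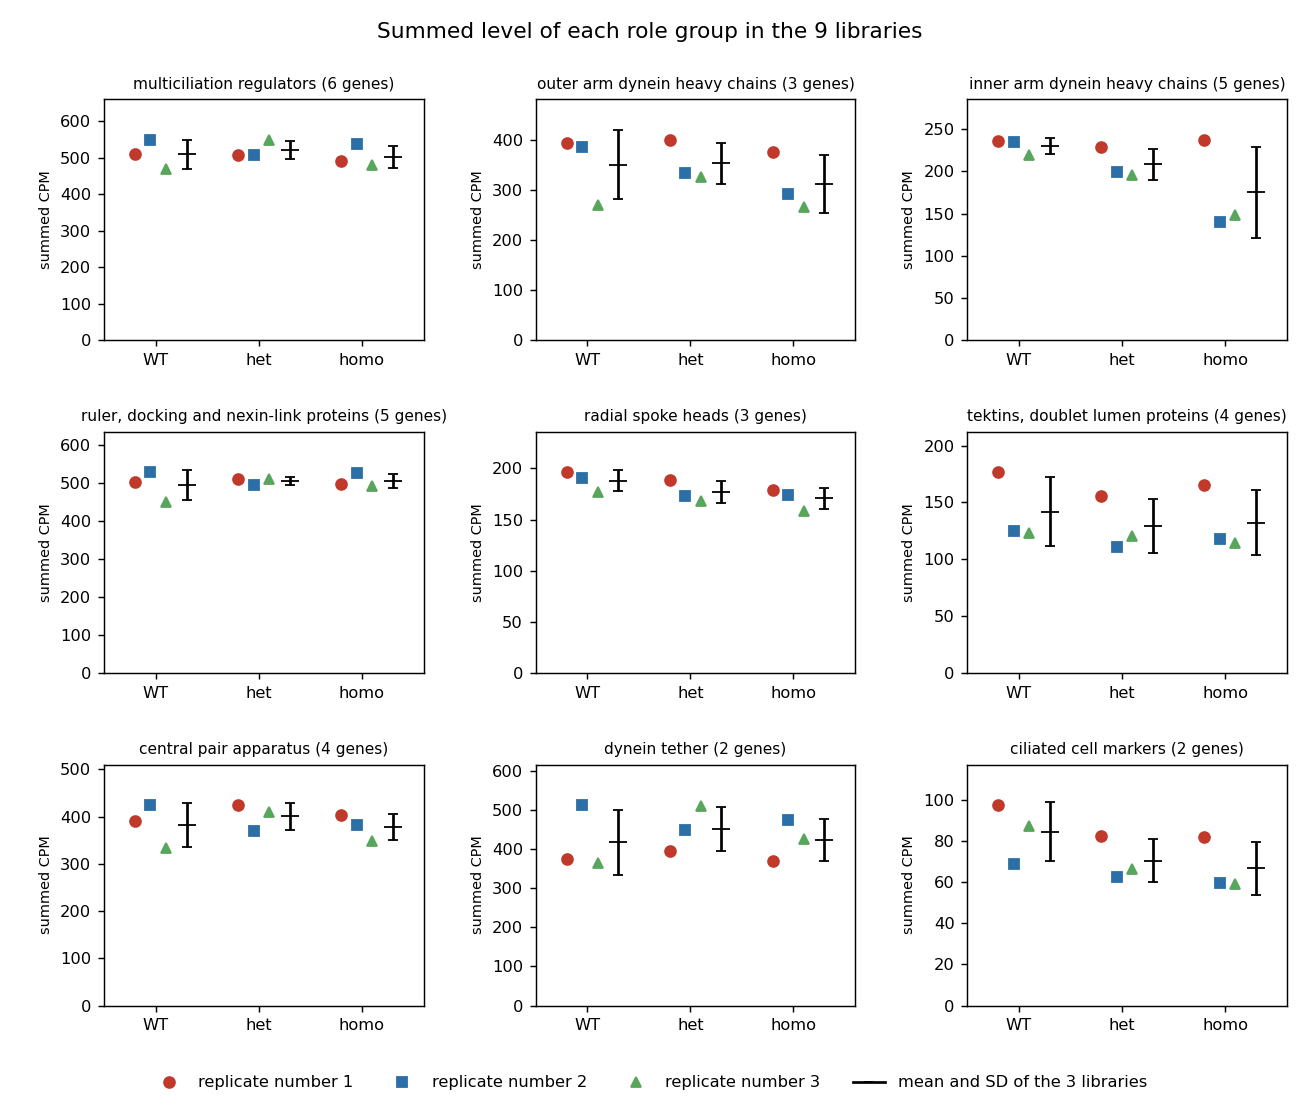
Summed CPM (vertical axes, each from 0) of the members of each role group by genotype, with 1 symbol per library and bars showing the mean and SD of 3 libraries. The inner arm dyneins stand at 229.5 to 238 CPM in all 3 libraries of number 1, while homo replicates 2 and 3 stand at 140.4 and 149 CPM, and the doublet lumen group is highest in number 1 for every genotype.

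Beyond the 34 members, 85 other listed genes of motile cilia were tested, of which 14 were higher and 2 lower in number 1. Over all genes 5.42% were higher and 3.52% lower. The median of the 85 was 0.27, against −0.03 over all genes. The higher ones include Foxn4, a forkhead factor of multiciliated cells (1.03, edgeR adjusted p = 0.00438), and Tcte1 of the nexin link (1.13, edgeR adjusted p = 0.000661). Dnali1, an inner arm light intermediate chain, was higher as well (0.92, edgeR adjusted p = 0.00249). Lrrc48, also called Drc3 and also of the nexin link, went the other way (−0.43, edgeR adjusted p = 0.000422), within the fold limit. Foxn4 was the only 1 called of 13 listed multiciliation and basal body genes beyond the members, a share near the 8.95% of all genes. Gmnc, of the same list, was at −0.10 (edgeR adjusted p = 0.6). Cfap74 of the central pair was lower (−0.59, edgeR adjusted p = 0.00101), as was Dnah17, a heavy chain known from sperm (−0.64, edgeR adjusted p = 0.0407). Of 11 assembly factors for dynein arms, 1 was called higher, also near that share, and Dnaaf5 was 0.53 (edgeR adjusted p = 0.000711), below the fold limit. Of 24 genes of intraflagellar transport and the BBSome, which sensory and primary cilia also need, 0 were called by edgeR, where 8.95% of all genes were. On adjusted p alone 8 passed (1 higher and 7 lower), a share near the 31.6% of all genes, and their median was −0.07.

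Markers of other cell types moved with the same number. Over all genes edgeR called 5.42% higher and 3.52% lower in number 1. Among 8 markers of immature OSNs 4 were higher in number 1, with a summed level of 2518 to 2544 CPM against 1720 to 2093 in the other libraries. The same held for 4 of 9 markers of basal cells and progenitors (771 to 789.9 against 473 to 655 CPM) and 3 of 9 of cartilage and bone (6019 to 6531 against 3331 to 4288 CPM). Of 6 markers of ensheathing glia 3 were called higher, but their summed level overlapped (279.6 to 293 against 231 to 316 CPM). Of 10 markers of mature OSNs, 1 was higher, and 0 of 8 of sustentacular cells were called by edgeR. Of 9 secretory and gland markers tested 2 were lower (Obp1a and Scgb3a1), and of 6 blood and neutrophil markers tested 2 were lower (S100a8 and S100a9). The haemoglobin genes Hba-a1, Hba-a2, Hbb-bs and Hbb-bt were listed at 0 in all 9 libraries. The part of these cell types in the values of the motile cilium genes was not tested.

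Loss of TAAR enhancer 2 gave no call among the members. Between homo and WT, 0 of 34 passed in edgeR, and 0 in DESeq2 and limma-voom. Over all genes edgeR called 0.0202%, namely Taar3, Taar6, Taar7a and Taar9, all lower. At an unadjusted p under 0.05, which 3.45% of all genes reached, 3 members were lower and 0 higher. The value was below 0 for 25 members, with a median of −0.17 against 0.00 over all genes, and without homo replicate 1 the median was −0.46. For the 85 other listed genes of motile cilia the median was −0.03, and 0 were called, so the lean was not seen in that wider list. Between het and WT 0 members were called by edgeR, DESeq2 or limma-voom, and edgeR called 0.0% of all genes. There 0 members had an unadjusted p under 0.05 in edgeR, and the median was −0.08, turning to 0.04 without WT replicate 1. Between homo and het, 0 members were called by any of the 3 tools, and edgeR called 0.00506% of all genes. In edgeR 0 members had an unadjusted p under 0.05, and the median was −0.06. No member's homo libraries lay wholly above or below its WT libraries, as they did for 2.97% and 2.71% of all genes. Foxj1 was −0.26 between homo and WT (SE 0.41, edgeR adjusted p = 1), and 0.13 without WT replicate 1.

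The members with the smallest p between homo and WT were a ciliary tip gene, an inner arm dynein and a tether gene. Sntn, given above by library, had means of 529 ± 112 (SD, n = 3) in WT, 446 ± 48.0 in het and 379 ± 63.0 in homo, a log2 difference of −0.47 (SE 0.18, edgeR adjusted p = 1). Dnah10 had 1718, 1569.8 and 1732 normalized counts in replicates 1, 2 and 3 of WT, 1514, 1397 and 1306 in het and 1629, 915 and 988 in homo. Dnah10, an inner arm heavy chain, had 2 homo libraries far below all the others while that of number 1 lay within the WT range, giving −0.50 (SE 0.20, edgeR adjusted p = 1). Its 3 het libraries all lay below its 3 WT libraries, the 1 member for which this held (against 1.95% of all genes lower and 2.01% higher), with −0.25 (SE 0.20, edgeR adjusted p = 1). Cfap43 was −0.38 between homo and WT (SE 0.16, edgeR adjusted p = 1). Between het and WT, Tppp3 was −0.27 (SE 0.20, edgeR adjusted p = 1) and Sntn −0.25 (SE 0.18, edgeR adjusted p = 1).

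Since number 1 stood apart, homo and WT were also compared within the numbers. In number 1, with 1 library per genotype and no replicate, 1 member, Sntn, was under 80% of WT in homo (70.1%). In numbers 2 and 3, 15 of 34 members were under 80%. Homo was below WT by any amount for 22 members in number 1 and for 22 in numbers 2 and 3. None of these counts was set beside the share of all genes, so they describe the members only. Dnah6 had 2115, 2329 and 1873 normalized counts in replicates 1, 2 and 3 of WT, 2062, 1692 and 1845 in het and 2179, 1119.8 and 1138 in homo. Dnah6, an inner arm heavy chain, was 104% of WT in homo within number 1 and 54.0% within numbers 2 and 3. For Dnah10 these values were 95.4% and 57.9%, for Dnah5 86.5% and 53.8%, and for Mcidas 109% and 50.5%. Foxj1 stood at 91.1% and 76.1%. The summed inner arm dyneins were 101% of WT in number 1 and 63.6% in the other numbers. Summed over all 34 members homo was 97.2% and 94.2% of WT, and over the 85 other listed genes of motile cilia 101% and 114%.

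Fitted on the 6 libraries of numbers 2 and 3 alone, 14 of 34 members were lower in homo than WT at an unadjusted p under 0.05 and 0 were higher, where 6.61% of the 19432 genes tested reached that p in either direction. None of the members, and 0 of all genes, passed the threshold after adjustment in edgeR. The lowest unadjusted p was that of Dnah10, with −0.79 (SE 0.10, edgeR adjusted p = 0.392), followed by Dnah6 with −0.89 (SE 0.12, edgeR adjusted p = 0.415). Dnah1, Hydin, Spag16, Mcidas, Cfap43, Dnah5, Dnah9, Foxj1, Rsph1, Dnah2, Sntn and Spag6 followed, from −0.99 for Mcidas to −0.24 for Rsph1. Members at 0 or above included Dnah11 (0.18), Cfap44 (0.17), Ccdc39 (0.13) and Rfx3 (0.10), with edgeR adjusted p from 0.777 to 0.885. The median was −0.26. In the same libraries 10 members were lower in homo than het at that p, where 1.2% of all genes reached it, and 2 were lower in het than WT, where 1.85% did.

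**Figure D5:**
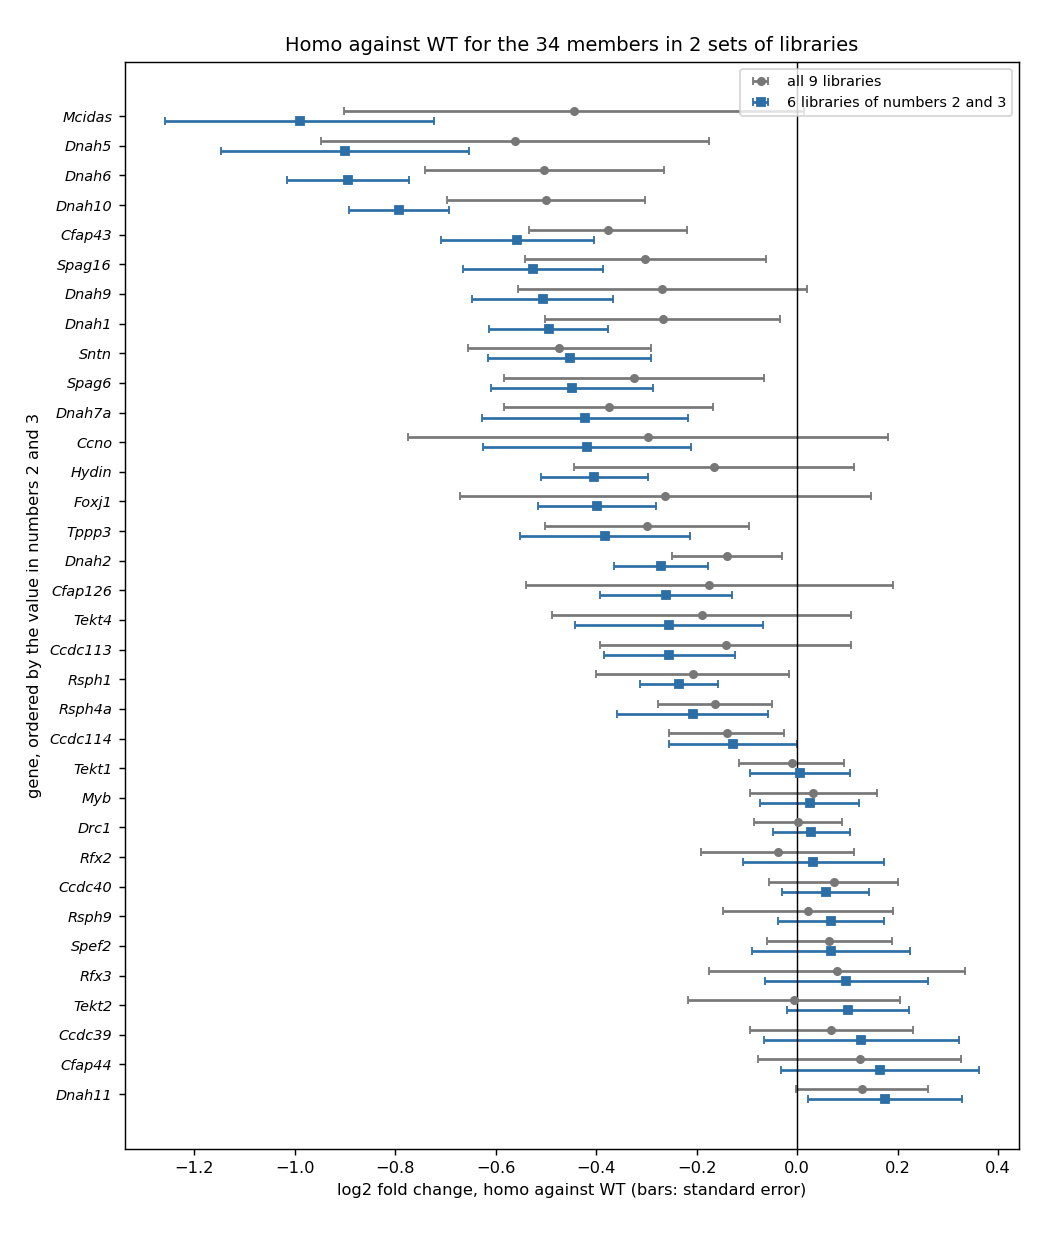
Log2 fold change of homo against WT for the 34 members, fitted on all 9 libraries (grey circles) and on the 6 libraries of numbers 2 and 3 (blue squares), with bars showing the standard error. From Mcidas at −0.99 down to Ccdc114 the values lie below 0, the dyneins Dnah5, Dnah6 and Dnah10 lie between −0.79 and −0.90 in the 6 libraries, and 12 members lie just above 0.

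Whether homo differed from WT by another amount in number 1, where each genotype had 1 library, was tested as an interaction, a test added after the data were seen. In edgeR 0 of 34 members and 0.0% of all genes passed, and 5 members, against 1.84% of all genes, had an unadjusted p under 0.05, all with the lower homo value in numbers 2 and 3. They were Dnah6, Dnah10, Hydin, Dnah1 and Mcidas, whose differences between the numbers were 0.94, 0.72, 0.53, 0.54 and 1.11 on the log2 scale. Homo replicate 2 was the lowest of the 9 libraries for 11 members and homo replicate 3 for 9, while WT replicate 1 was the highest for 14. How often these libraries were the extremes over all genes was not counted.

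Markers of other cell types were summed by genotype as well. The summed level of the secretory and gland markers was 10862 to 14298 CPM in WT, 5656 to 12013 in het and 5961 to 8873 in homo, and that of the blood and neutrophil markers 674 to 3455, 431 to 976 and 293 to 703 CPM. None of the 9 and 6 markers tested was called in homo against WT by edgeR, and Ltf, a gene on both lists, was at −2.01 (edgeR adjusted p = 1). The part of these cells in the values of the members was not tested.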

How the data were processed

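RNA-seq libraries from total RNA of whole MOE were strand-specific and polyA-selected, per the methods. Reads were trimmed with Trimmomatic 0.36, mapped to mm10 with Hisat2 2.1.0 and counted per gene symbol with featureCounts (Subread 1.6.2). The authors deposited these raw counts, with no strand option, annotation release or rule for reads of several genes given in the sources used here. The authors also deposited a signal, counts normalized with DESeq2 1.20.0 by 1 size factor per library (0.806 to 1.28), which was checked by recomputing the factors. Total counts were 20527992 to 32262005 per library, with a median of 26174388.

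Genes whose raw counts summed to 10 or more (19775 genes) were tested by quasi-likelihood in edgeR 4.0.16 (R 4.3.3, TMM, genotype as factor, 2-sided, Benjamini-Hochberg over all genes tested). A gene was called at an adjusted p under 0.05 and a fold change over 1.5. The common dispersion was 0.0545, a coefficient of variation of 23.3%. The contrast of number 1 had genotype in the model. Alternatives used DESeq2 1.42.0, limma-voom (limma 3.58.1), other scalings and filters, a block for the replicate number, and left-out libraries. The fitting code was tested on simulated data. Sums over lists carry no test. The members, the gene lists and the contrasts were chosen with earlier results of these data known. Values per library are given for 14 genes fixed by function and for the 3 members with the smallest p in each contrast, and those of Rfx3, Dnah6 and Cfap44 were added after their values were seen. Of the other lists, some genes among those with the smallest p were named, and Taar3, Taar6, Taar7a, Taar9, Dnah17, Cdc20b, Dnah7b and Spag6l for position, shared sequence or as the few genes called. Gmnc was added as a gene of the same list as Foxn4 that was not called. Exon lengths, uniqueness and overlaps came from GENCODE M21 on GRCm38 and promoter windows from RefSeq.

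Same-numbered libraries were compared by the correlation of how far each gene lay from its group mean (16156 genes). For numbers 1, 2 and 3, WT with het gave 0.689, 0.468 and 0.573, het with homo gave 0.822, 0.387 and 0.23, and WT with homo gave 0.541, 0.345 and −0.083. At the limit of 0.1 the number pairs het with both other groups but not WT with homo. Numbers 2 and 3 were not kept apart in homo. Crossed pairs of these numbers gave −0.279 to 0.595, and het 2 with homo 3 (0.595), WT 2 with homo 3 (0.549) and het 3 with homo 2 (0.535) lay above the same het or WT library with the homo library of its own number. Pairs of number 1 with another number gave −0.758 to −0.021. Of 18 best partners in another genotype, 11 had the same number, including all 6 of number 1 libraries.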

Additional observations from a re-analysis of the deposited data

Results flagged for a closer look

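Both values here came from comparing each member over the 6 libraries of numbers 2 and 3, where the gap of the highest or lowest library to its nearest neighbour was divided by the whole range. Of 35 values checked in this way, 2 exceeded Dixon's 95% critical value for 6 libraries. Chance flags about 1 in 20, a share near the one found. Tppp3 in WT replicate 3 was the highest of the 6 with 1772 normalized counts, the others reaching down to 1137, and the ratio was 0.852. Cfap44 in WT replicate 3 was the lowest with 6851 normalized counts, the others reaching up to 10440.2, and the ratio was 0.648. The blood and neutrophil markers were also highest in WT replicate 3, at 3455 CPM, and their part in these values was not tested.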

How the results depend on the processing

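Over 38 results, 618 values were recomputed under alternatives, of which 586 kept direction and side of the threshold or stayed within the spread. The counts of members called between genotypes were 0 under every alternative run for them. With the replicate number as a block, 0 members were called in each genotype contrast, and the block changed no other call. The number did not pair WT with homo at the limit of 0.1, and numbers 2 and 3 were not kept apart in homo, which limits this block. The count for number 1 against numbers 2 and 3 was 21 by adjusted p alone and 3 to 11 with 1 library left out. For any difference between numbers it was 4 to 23. The median between homo and WT ran from −0.46 to −0.056 with 1 library left out, and that between het and WT from −0.23 to 0.04. The summed level in number 1 as a percent of numbers 2 and 3 was 124% as a geometric mean over members and 127% without the 5 most abundant. The summed level in homo was 95.3% of WT, and the same 2 settings gave 87.7% and 86.8%. In het it was 100.6% of WT, the same 2 settings gave 94.7% and 94.1%, and leaving out 1 library gave 95.5% to 104.8%. With 1 library left out, Foxj1 ran from −0.77 to 0.13 in homo against WT and from −0.59 to 0.18 in het against WT, the values above 0 both coming without WT replicate 1. Of 25 results on single named members, 16 kept their call throughout, and the causes of the changes were not tested. Without a known meaning of the replicate number, whatever it stands for cannot be told apart from chance differences between libraries in dissection or preparation. With 3 libraries per genotype, 0 calls do not show that levels were alike.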
